A study of Mus musculus with 6 samples.

Results

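C-type lectin receptors are membrane proteins through which macrophages bind sugars and lipids of microbes and of damaged cells. The set described here holds the 10 genes Clec4e, Clec4d, Clec4n, Clec4a2, Clec5a, Clec7a, Clec12a, Clec10a, Mgl2 and Mrc1, chosen by name. All array probe sets whose platform annotation names exactly 1 of these symbols were taken, which gave 12 probe sets for 9 genes, out of 34945 probe sets with 1 symbol for 18193 genes. For Clec12a, an inhibitory receptor gene, expression is not analysed here, and only its promoter sequence was searched. Clec4e, Clec4n and Clec4a2 have 2 probe sets each and the other 6 genes have 1.

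The vimentin-deficient group held 3 arrays of macrophages grown from the bone marrow of vimentin-deficient mice, and the wild-type group held 3 arrays of macrophages from wild-type littermates. Vimentin is an intermediate filament protein of the cytoskeleton. The mice had a C57BL/6 background, ate rodent chow and were used at an age of 17 weeks. All cultures received supernatant of CMG14-12 cells, a source of macrophage colony-stimulating factor, and were kept at normal oxygen. The labels name no added stimulus in either group. The labels call the samples biological replicates and do not say how the Vim allele was made or whether animals were pooled.

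Receptors of this family fall into classes by how they signal. Mincle (Clec4e), MCL (Clec4d) and dectin-2 (Clec4n) have short cytoplasmic tails and signal through the adaptor FcR-gamma (Fcer1g), while Clec5a uses DAP12 (Tyrobp). Dectin-1 (Clec7a) carries its own activating tyrosine motif. All of these feed into the kinase SYK, with the adaptor CARD9 downstream of Mincle, dectin-2 and dectin-1. DCIR (Clec4a2) bears an inhibitory tyrosine motif that recruits phosphatases. The macrophage galactose-type lectins (Clec10a, Mgl2) and the mannose receptor (Mrc1) are mainly endocytic and are used as markers of alternative activation.

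Values are log2 probe set values as the authors deposited them, so a difference of 1 is a 2-fold change. Vim read 8.20, 6.96 and 7.13 on vimentin-deficient arrays against 13.41, 13.24 and 13.31 on wild-type arrays with its brightest probe set (log2 fold change -5.89, SE 0.31, adjusted p = 0.00414). Adjusted p-values are from limma with Benjamini-Hochberg adjustment over 13445 genes, and 0.05 is the threshold; a gene entered if its mean reached 6.93, the 40th percentile of the non-control probe sets. All 9 lectin genes passed that filter. Vimentin-deficient replicate 3 stood apart: it correlated with the others at 0.975 to 0.979 across probe sets, while pairs of the other 5 arrays reached 0.992 to 0.998. The tests of the lectin genes are therefore given with 6 arrays and without that array. Without it, Vim was at -5.74 (SE 0.26). The labels give no batch or date, so a batch effect was not tested. In whole cultures, fewer cells of a type and less RNA per cell cannot be told apart.

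With all 6 arrays no lectin gene passed the threshold. Of the 9 genes, 0 passed limma's adjusted p, where 3 of 13445 tested genes (0.0223%) did, and 3 had an unadjusted p below 0.05 (Clec4e, Clec4n and Clec4a2), as did 1072 of all tested genes. At the level of single probe sets, 0 of 12 passed the adjusted p, where 5 of 45037 (0.0111%) did. An unadjusted p below 0.05 in limma was reached by 5 of the 12. The share of all probe sets that reached it is not given here, so that count cannot be set against it. In 4 of 9 genes the genotypes did not overlap, against 15.5% of tested genes. Clec4e and Clec4n lay above (5.32% of tested genes) and Clec4a2 and Mrc1 below (10.1% of tested genes). The mean was higher in vimentin-deficient macrophages for 6 of 9 genes, with a median log2 fold change of 0.32, against 39.6% of all tested genes with a median of -0.02.

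Without vimentin-deficient replicate 3, which left 2 vimentin-deficient against 3 wild-type arrays, 4 of the 9 genes passed. The array was left out for its values in these same data, so the adjusted p-values of this fit are descriptive. Clec4e, Clec5a and Clec4n rose, where 1.31% of tested genes rose, and Clec7a fell, where 1.03% fell (2.34% in either direction). Among single probe sets, 5 of 12 passed, where 1.18% of all probe sets did: both of Clec4e and those of Clec5a and Clec7a, and 1 of Clec4n. An unadjusted p below 0.05 in limma was reached by 7 of the 9 genes in this fit, and by 1910 of all 13445 tested genes. The median log2 fold change of the 9 genes was 0.14 in this fit, against -0.01 over all tested genes.

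**Figure D1:**
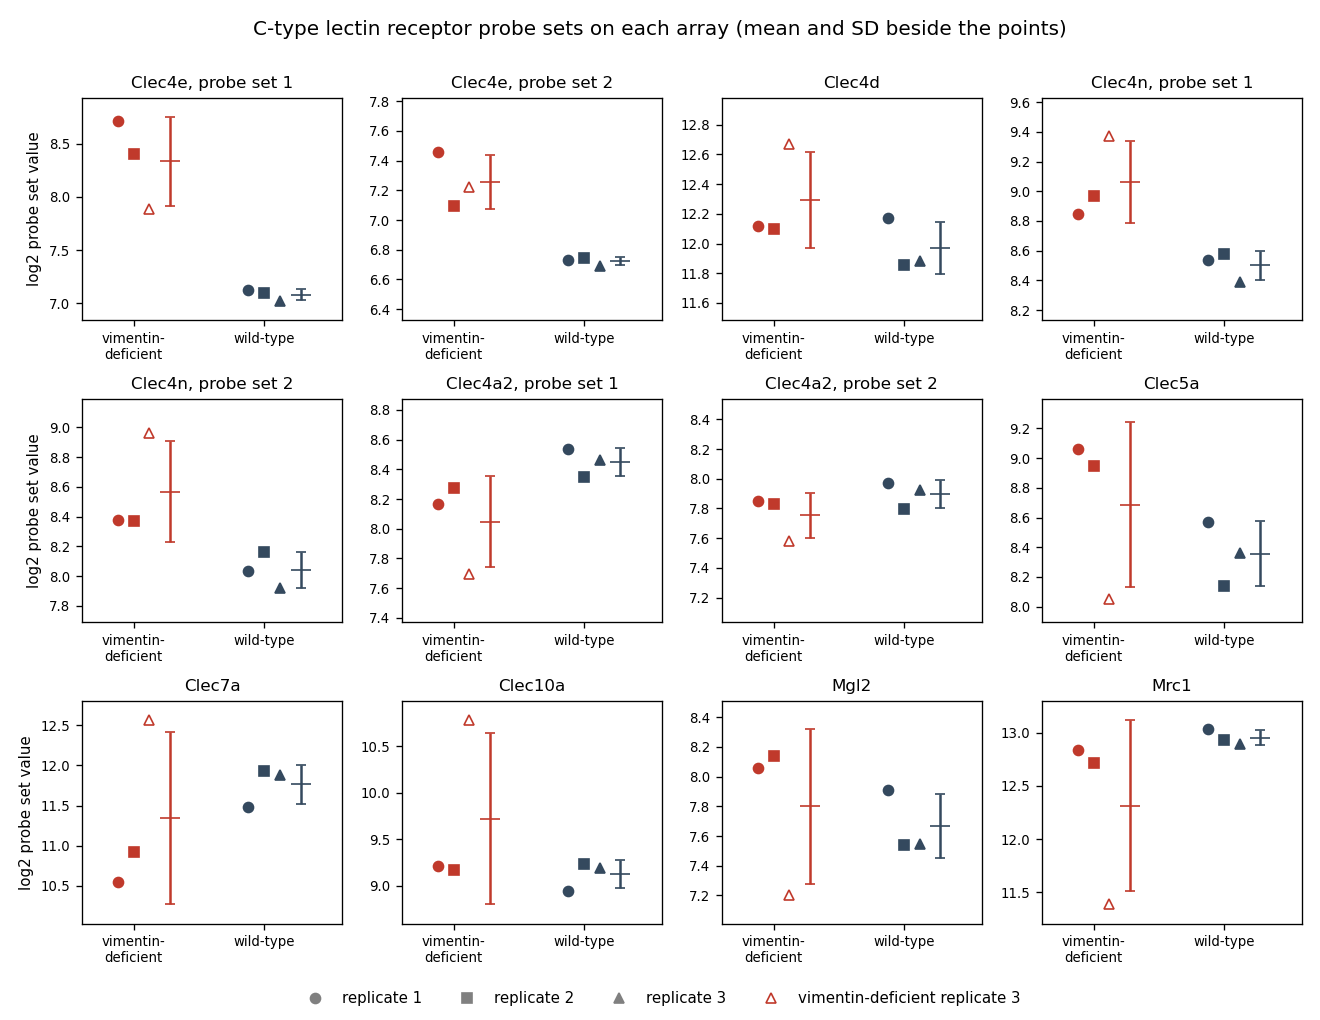
Log2 value of each of the 12 probe sets (vertical axis, scaled per panel) on the 3 vimentin-deficient (left, red) and 3 wild-type (right, blue) arrays, with the mean and SD beside the points. Both Clec4e and both Clec4n probe sets lie higher on every vimentin-deficient array. Vimentin-deficient replicate 3 (open triangle), which stood apart across all probe sets, is the highest or lowest of the 6 arrays in 10 of the 12 panels. The share of all probe sets with that trait is not given here.

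Clec4e encodes Mincle, which binds glycolipids such as the mycobacterial cord factor and a nuclear protein released by dying cells. Its brighter probe set, 1420330_at, read 8.71, 8.40 and 7.89 on vimentin-deficient arrays against 7.13, 7.10 and 7.02 on wild-type arrays. Every vimentin-deficient array was higher than every wild-type array, and the wild-type values lay close to the 6.93 filter, where background can compress a fold. The means were 8.34 ± 0.42 and 7.08 ± 0.05 (SD, n = 3 each), a 2.38-fold difference (log2 fold change 1.25, SE 0.19, adjusted p = 0.17). Without vimentin-deficient replicate 3 the log2 fold change was 1.48 (SE 0.09, 2.78-fold, adjusted p = 2.4e-05).

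The second Clec4e probe set, 1420331_at, read 7.46, 7.09 and 7.22 on vimentin-deficient arrays against 6.73, 6.74 and 6.69 on wild-type arrays. These groups did not overlap either, but the difference was smaller (log2 fold change 0.53, SE 0.09, 1.45-fold, adjusted p = 0.34 over all probe sets, and 0.55, adjusted p = 0.0043, without vimentin-deficient replicate 3). The brighter probe set exceeded the dimmer by 1.08 ± 0.36 on vimentin-deficient and 0.36 ± 0.03 on wild-type arrays (SD, n = 3 each). The gap between those, 0.72, had p = 0.10 by a two-sided exact permutation test, the smallest p that 3 against 3 arrays can give (0.15 adjusted over 3 genes with 2 probe sets). The wild-type values of the second probe set lay below the 6.93 filter, so its fold and this gap are taken against values near background. The direction was the same for both probe sets, and the size was not settled.

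The 250 bases before the RefSeq start of Clec4e (chr6:123289872-123290121, minus strand, build GRCm38.p6) are shown because Clec4e had the largest difference of the set, beside those of Clec5a (chr6:40585806-40586055, minus strand) and Clec7a (chr6:129472780-129473029, minus strand, the first of 2 listed starts), which also passed without vimentin-deficient replicate 3. Clec4n has no entry in that table. Capitals mark matches, on either strand, to 5 short motifs, whose overlaps with each other were allowed. The C/EBP factors were searched as TTGCNNAA. For PU.1, a factor of myeloid cells, the letters were GAGGAA. The core of the interferon response element was written as GAAANNGAA. For AP-1, the dimer of Fos and Jun proteins, the letters were TGANTCA. The TATA box was taken as TATAAA.
Clec4e: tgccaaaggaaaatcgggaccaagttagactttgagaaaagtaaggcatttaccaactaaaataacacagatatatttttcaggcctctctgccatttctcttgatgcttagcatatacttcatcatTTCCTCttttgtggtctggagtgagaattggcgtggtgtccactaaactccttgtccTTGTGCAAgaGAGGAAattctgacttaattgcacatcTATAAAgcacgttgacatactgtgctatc
Clec5a: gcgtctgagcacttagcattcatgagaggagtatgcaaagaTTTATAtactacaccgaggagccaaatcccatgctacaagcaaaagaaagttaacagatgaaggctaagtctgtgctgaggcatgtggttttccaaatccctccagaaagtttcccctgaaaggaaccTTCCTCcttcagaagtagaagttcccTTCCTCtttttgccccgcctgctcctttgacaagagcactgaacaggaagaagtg
Clec7a: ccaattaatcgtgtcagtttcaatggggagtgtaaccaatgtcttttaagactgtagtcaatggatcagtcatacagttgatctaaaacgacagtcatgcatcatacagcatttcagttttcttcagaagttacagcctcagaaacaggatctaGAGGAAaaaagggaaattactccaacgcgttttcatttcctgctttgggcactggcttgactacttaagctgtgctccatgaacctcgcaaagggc

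In the Clec4e window the C/EBP match starts 66 bases before the start, PU.1 matches lie at 123 and 56, and the TATA match at 29. The Clec5a window holds PU.1 matches at 81 and 55 and a TATA match on the opposite strand at 209, and the Clec7a window a single PU.1 match at 96. Of the 8 lectin genes with a window in the table, PU.1 letters were found in 7 (Clec4a2 had none), C/EBP letters in 2 (Clec4e and Clec12a), TATA letters in 3, AP-1 letters in 1 and the interferon element letters in 0. Among the 32851 windows of this length that were counted, 23.3% held PU.1, 9.56% C/EBP, 12.4% TATA, 6.75% AP-1 and 7.13% interferon element letters. That count left out 1 chromosome, which holds none of the lectin genes. It is per window, so a gene with several starts counts several times, while the lectin counts are per gene. These are letter matches, and no binding was measured.

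Clec4d, whose product MCL pairs with Mincle at the cell surface, overlapped between the genotypes. It read 12.12, 12.10 and 12.67 on vimentin-deficient arrays against 12.17, 11.86 and 11.88 on wild-type arrays, where wild-type replicate 1 lay above vimentin-deficient replicates 1 and 2. The log2 fold change was 0.32 (SE 0.17, adjusted p = 0.69) with 6 arrays and 0.14 (SE 0.10, adjusted p = 0.60) without replicate 3. Leaving out wild-type replicate 1 as well gave 0.24 and brought Clec4d just past the threshold in limma (adjusted p = 0.049). Clec4d passed in only 1 of 13 alternatives without vimentin-deficient replicate 3. Its single probe set carries the array maker's suffix for probes shared with other transcripts, as does the brighter probe set of Clec4n.

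Clec4n, which encodes the fungal mannan receptor dectin-2, was higher on all 3 vimentin-deficient arrays. Its brighter probe set, 1419627_s_at, read 8.85, 8.96 and 9.37 there against 8.54, 8.58 and 8.39 on wild-type arrays (log2 fold change 0.56, SE 0.14, 1.47-fold, adjusted p = 0.37). The second, 1425951_a_at, read 8.38, 8.37 and 8.96 against 8.03, 8.16 and 7.92 on wild-type arrays (log2 fold change 0.53, SE 0.17). The 2 probe sets thus differed in their genotype difference by 0.03 (two-sided exact permutation p = 0.70). Vimentin-deficient replicate 3 had the highest value of both. Without it the log2 fold change of the gene was 0.40 (SE 0.08, adjusted p = 0.030), with the second probe set at 0.33 and not past the threshold (adjusted p = 0.083). This call was lost under 6 of 13 alternatives without replicate 3, among them quantile normalization (adjusted p = 0.059) and leaving out vimentin-deficient replicate 1 (0.13) or 2 (0.22) or wild-type replicate 3 (0.21) as well.

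Clec5a, the DAP12-coupled receptor known for binding dengue virus in humans, gave opposite pictures on the vimentin-deficient arrays. Replicates 1 and 2 read 9.06 and 8.95 and replicate 3 read 8.05, against 8.57, 8.14 and 8.36 on wild-type arrays. Replicates 1 and 2 lay above all wild-type arrays and replicate 3 below all of them. With 6 arrays the log2 fold change was 0.33 (SE 0.27, adjusted p = 0.79), against 0.14 without vimentin-deficient replicate 1, 0.20 without replicate 2 and 0.22 without wild-type replicate 2, and without replicate 3 Clec5a rose by 0.65 (SE 0.11, 1.57-fold, adjusted p = 0.013). That call was lost when vimentin-deficient replicate 1 (adjusted p = 0.20) or 2 (0.088) or wild-type replicate 3 (0.16) was left out as well.

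Clec7a, which encodes the beta-glucan receptor dectin-1, showed the same split with the sign turned. Vimentin-deficient replicates 1 and 2 read 10.54 and 10.93, below the wild-type values of 11.49, 11.93 and 11.88, and replicate 3 read 12.56, above them. The group means were 11.34 ± 1.07 in vimentin-deficient and 11.76 ± 0.24 in wild-type macrophages (SD, n = 3 each), and the log2 fold change was -0.42 (SE 0.49, adjusted p = 0.87). It was -0.02 without vimentin-deficient replicate 1 and -0.21 without replicate 2. Without replicate 3 Clec7a fell, with a log2 fold change of -1.03 (SE 0.14, 2.04-fold lower, adjusted p = 0.00358). That call was lost when vimentin-deficient replicate 1 (adjusted p = 0.085) or wild-type replicate 3 (0.078) was left out as well.

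Clec4a2, the inhibitory receptor gene for DCIR, was lower on all 3 vimentin-deficient arrays with its brighter probe set. This probe set, 1422013_at, read 8.16, 8.27 and 7.70 there against 8.54, 8.35 and 8.46 on wild-type arrays (log2 fold change -0.40, SE 0.15, adjusted p = 0.58). The second, 1425406_at, read 7.85, 7.83 and 7.58 against 7.97, 7.79 and 7.92 on wild-type arrays, and here the groups overlapped (log2 fold change -0.14, SE 0.09). The differences by the 2 probe sets were 0.26 apart, the second nearer 0 (two-sided exact permutation p = 0.10, the smallest possible, 0.15 adjusted over 3 genes). Without replicate 3 the log2 fold change of the gene was -0.23 (SE 0.08, adjusted p = 0.19). A further probe set names both Clec4a2 and Clec4b1 in the annotation and was left out.

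Among the endocytic receptors, Mrc1 was lower on all vimentin-deficient arrays, mostly through replicate 3. It read 12.84, 12.72 and 11.39 on vimentin-deficient arrays against 13.03, 12.93 and 12.90 on wild-type arrays. The log2 fold change was -0.64 (SE 0.36, 1.56-fold lower, adjusted p = 0.70), and -0.18 (SE 0.07, adjusted p = 0.26) without it. Clec10a read 9.21, 9.17 and 10.78 against 8.95, 9.24 and 9.20 on wild-type arrays, so that only vimentin-deficient replicate 3 stood above the wild-type range (log2 fold change 0.59, SE 0.42, adjusted p = 0.76, and 0.06, SE 0.10, adjusted p = 0.86 without it). Mgl2, the close relative beside Clec10a, was at its lowest on that array. It read 8.06, 8.14 and 7.20 on vimentin-deficient arrays against 7.91, 7.54 and 7.55 on wild-type arrays, with replicates 1 and 2 above the wild-type range and replicate 3 below it (log2 fold change 0.13, SE 0.25, adjusted p = 0.92, and 0.43, SE 0.10, adjusted p = 0.062 without replicate 3). Leaving out wild-type replicate 1 as well brought Mgl2 past the threshold in limma (0.55, adjusted p = 0.000102). Leaving out wild-type replicate 2 (0.37, adjusted p = 0.13) or 3 (0.37, adjusted p = 0.40) in its place did not. Mgl2 passed in 2 of 13 alternatives without vimentin-deficient replicate 3.

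**Figure D2:**
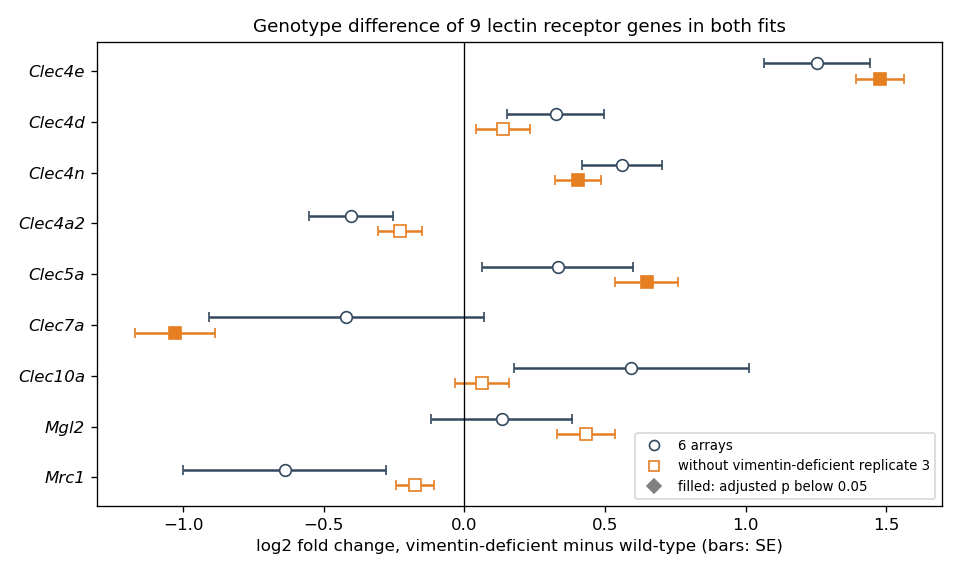
Log2 fold change, vimentin-deficient minus wild-type (horizontal axis, bars are SE), of the 9 lectin receptor genes with 6 arrays (circles) and without vimentin-deficient replicate 3 (squares), filled where the adjusted p was below 0.05. No circle is filled, and the filled squares are Clec4e at 1.48, Clec4n at 0.40, Clec5a at 0.65 and Clec7a at -1.03.

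Vimentin-deficient replicate 3 set much of the spread in this family. Its difference from the mean of replicates 1 and 2 was 1.83 for Clec7a, 1.59 for Clec10a and -1.39 for Mrc1, so 3 of 9 genes differed by more than 1 log2 unit, as did 2.65% of tested genes. Clec5a was at -0.95, Mgl2 at -0.90, Clec4e at -0.67 and Clec4a2 at -0.52, while Clec4d and Clec4n were at 0.56 and 0.47. Replicates 1 and 2 differed from each other by at most 0.38, in Clec7a. In 3 of 9 genes (Clec5a, Clec7a and Mgl2) replicates 1 and 2 lay beyond all wild-type arrays on one side and replicate 3 on the other, as in 8.07% of tested genes. MHC class II genes were far higher on that array: the mean log2 value of the 4 tested of 5 listed was 12.54 on replicate 3, against 8.59 and 9.06 on vimentin-deficient replicates 1 and 2 and 8.76 to 9.22 on wild-type arrays. Their part in the lectin differences was not tested.

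**Figure D3:**
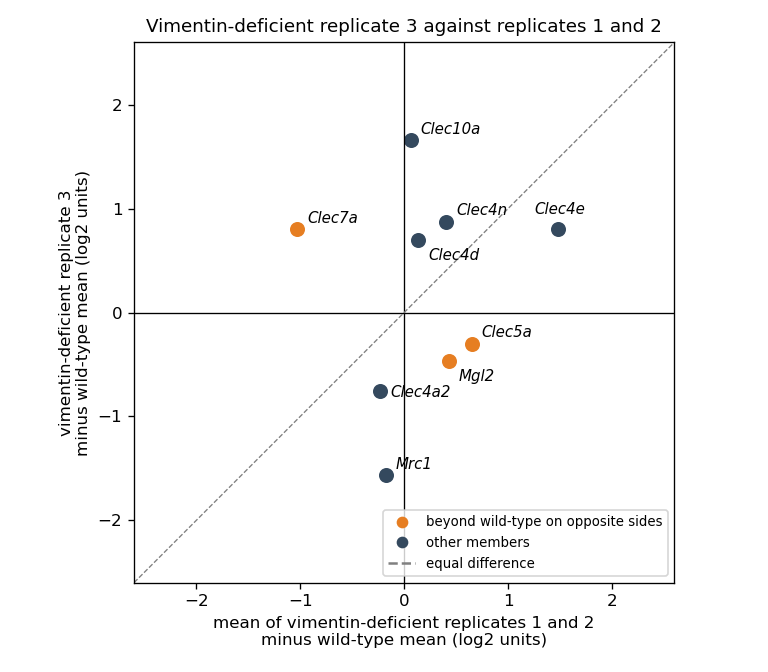
For each of the 9 lectin genes, the difference from the wild-type mean in log2 units of vimentin-deficient replicate 3 (vertical axis) against that of the mean of vimentin-deficient replicates 1 and 2 (horizontal axis), with the line of equal difference dashed. Clec4e, Clec4n, Clec4d and Clec10a lie above 0 on both axes, Clec4a2 and Mrc1 below 0 on both, and Clec5a, Clec7a and Mgl2 (orange) on opposite sides.

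Most of these genes sit in clusters of the mouse genome. In the order of protein-coding genes in the RefSeq table (assembly GRCm38.p6), Clec4a2, Clec4b2, Clec4n, Clec4d and Clec4e follow each other on chromosome 6. Clec7a and Clec12a lie further along the same chromosome with 4 coding genes between them, and Mgl2 and Clec10a are adjacent on chromosome 11. Among neighbours, Clec4e was at 1.25, Clec4d at 0.32, Clec4n at 0.56 and Clec4a2 at -0.40 on the log2 scale with 6 arrays. The 5 differences between neighbours that could be computed were each compared within arrays by a two-sided exact permutation test, which cannot go below 0.10. Clec4n minus Clec4a2 was 1.01 ± 0.57 on vimentin-deficient and 0.05 ± 0.16 on wild-type arrays (SD, n = 3 each), a gap of 0.96 (exact p = 0.10, 0.33 adjusted over the 5 pairs). Clec4e minus Clec4d gave a gap of 0.93 (exact p = 0.20), which was 1.34 without vimentin-deficient replicate 3. Clec4e minus Clec4n gave 0.69 (exact p = 0.40), and 1.07 without it. The gap of Clec4d minus Clec4n was -0.24 (exact p = 0.20). Clec10a minus Mgl2 gave 0.46 (exact p = 0.90) and -0.37 without replicate 3. No pair passed the threshold, and the design could not reach it.

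Mrc1 lies on chromosome 2 near Vim itself, with 4 coding genes between them (St8sia6, Hacd1, Stam and Tmem236), all tested and 0 of them past the threshold in limma with 6 arrays or without vimentin-deficient replicate 3. Slc39a12, a zinc transporter gene on the far side of Mrc1, had a log2 fold change of -0.62 with 6 arrays (adjusted p = 0.33) and fell by 0.46 on the log2 scale without replicate 3 (SE 0.08, adjusted p = 0.010). Whether sequence around the altered Vim allele bears on Mrc1 was not tested.

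The other genes of the family and of its signalling pathway were read from lists. Of 30 further lectin genes listed, most of them C-type lectins, 26 had a probe set and 12 passed the filter. Among these 3 were higher and 9 lower in vimentin-deficient macrophages (median log2 fold change -0.03), and 0 passed limma's threshold in either fit (0 and 1 had an unadjusted p below 0.05, with 6 arrays and without replicate 3). Without replicate 3, 1 was higher and 11 lower (median -0.07). Cd93, a C1q receptor-like lectin gene, had -0.34 (SE 0.21) with 6 arrays and -0.08 (SE 0.07) without replicate 3. Clec4b1, which lies beside Clec4a2, had -0.23 (SE 0.11) and -0.32 (SE 0.09), and Clec1a, beside Clec7a, had -0.11 and -0.17.

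Of 25 listed genes for signalling from the activating receptors 21 were tested, 12 higher and 9 lower, with a median of 0.01 (11 higher and 10 lower, median 0.00, without replicate 3). None passed limma's threshold with 6 arrays or without replicate 3 (0 of 21 in both). An unadjusted p below 0.05 was reached by 3 and 5 of the 21, and by 1072 and 1910 of all 13445 tested genes. The adaptor gene Fcer1g was at -0.02 (SE 0.06) with 6 arrays and 0.01 (SE 0.06) without replicate 3. The adaptor gene Tyrobp was at -0.08 (SE 0.07) and -0.14 (SE 0.06, adjusted p = 0.32). Syk was at -0.09 (SE 0.17) and, without replicate 3, at -0.29 (SE 0.08, adjusted p = 0.11). Hcst, the DAP10 adaptor gene, had -0.43 (SE 0.12, adjusted p = 0.46), or -0.32 without replicate 3 (SE 0.09, adjusted p = 0.13), and lay lower on all 3 vimentin-deficient arrays. Plcg2, a phospholipase downstream of SYK, had 0.22 (SE 0.08, adjusted p = 0.56), or 0.26 without replicate 3 (SE 0.08, adjusted p = 0.14), and lay higher on all 3. Among 8 tested genes of a list of inhibitory receptors and phosphatases, 2 were higher and 6 lower in both fits. The medians were -0.08 with 6 arrays and -0.11 without replicate 3, and 0 passed in either. An unadjusted p below 0.05 in limma was reached by 2 of them, and by 3 without replicate 3. The list also holds the receptor-type phosphatases Ptprc and Ptprj, so these counts are not of inhibitory genes alone. Ptpn6, the phosphatase SHP-1, was at -0.01 (SE 0.08) with 6 arrays and 0.00 (SE 0.08) without replicate 3. The inhibitory receptor gene Cd300a was at -0.23 (SE 0.09) and -0.28 (SE 0.08), and Sirpa at -0.15 (SE 0.06) and -0.19 (SE 0.06).

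**Figure D4:**
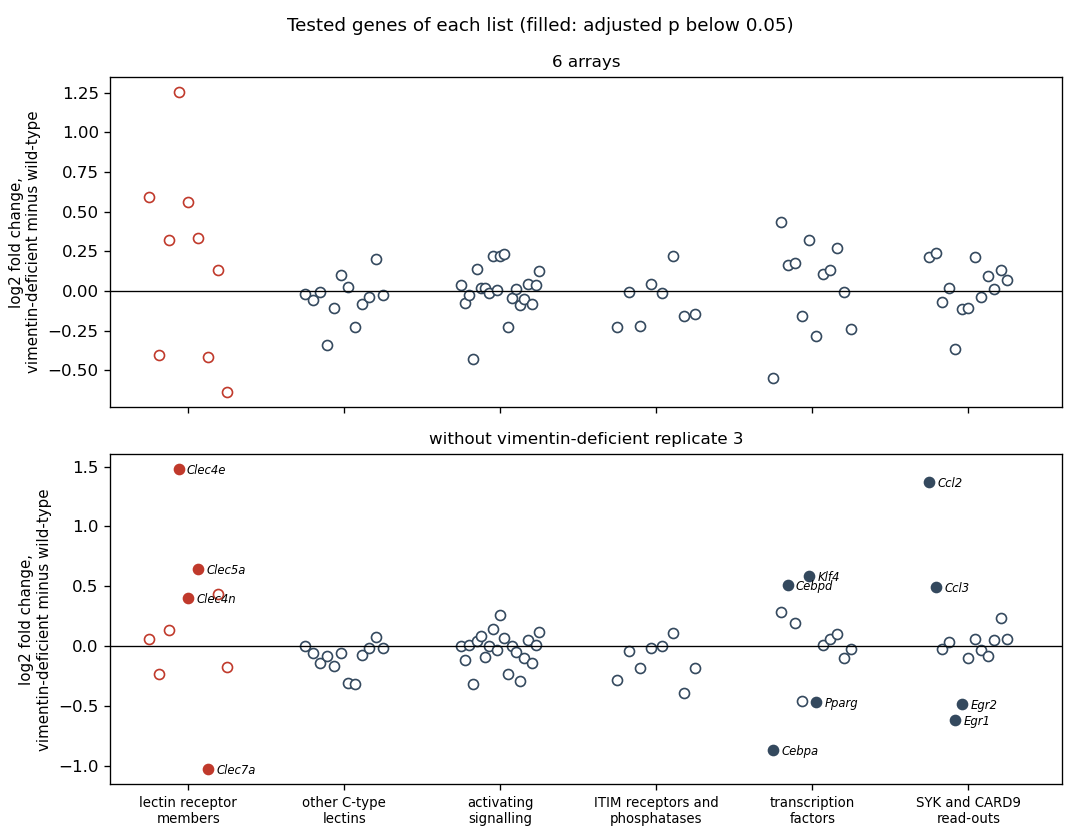
Log2 fold change, vimentin-deficient minus wild-type (vertical axis), of each tested gene in the lectin receptor set and in 5 related lists, with 6 arrays (top) and without vimentin-deficient replicate 3 (bottom), filled and named where the adjusted p was below 0.05. The 9 lectin receptors span -0.64 to 1.25 in the top panel. In the bottom panel the further lectins, the activating signalling genes and the list of inhibitory receptors and phosphatases hold no filled point.

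Transcription factors known to act on such genes were listed as well. Of 12 tested, 7 were higher and 5 lower with 6 arrays and 0 passed (1 had an unadjusted p below 0.05). Cebpb, a factor known to act on Clec4e in mouse macrophages, read 10.25 on vimentin-deficient replicate 1, 10.01 on replicate 2 and 10.57 on replicate 3, each above the wild-type values, which lay between 9.80 and 9.86. Its log2 fold change was 0.44 (SE 0.14, adjusted p = 0.52), and 0.29 (SE 0.09, adjusted p = 0.16) without replicate 3. In that fit, 2 of the 12 rose, Klf4 (0.59, SE 0.09) and Cebpd (0.51, SE 0.09), where 1.31% of tested genes rose, and 2 fell, Cebpa (-0.87, SE 0.11) and Pparg (-0.47, SE 0.08), where 1.03% fell. With 6 arrays the same genes were at 0.32 (Klf4), 0.17 (Cebpd), -0.55 (Cebpa) and -0.28 (Pparg). On the left-out array these 4 went the other way. Klf4 and Cebpd lay below every wild-type array there, and Cebpa and Pparg lay above every wild-type array by a small margin. Whether these factors bear on the lectin genes was not tested.

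Read-outs of SYK and CARD9 signalling were on both sides of 0. Of 13 tested of 18 listed, 8 were higher and 5 lower, with a median of 0.02 and 0 past the threshold with 6 arrays, also 0 at an unadjusted p below 0.05. Without vimentin-deficient replicate 3, 7 were higher and 6 lower (median 0.04), and 4 of 13 passed, where 2.34% of tested genes did. The chemokine genes Ccl2 (1.37, SE 0.28) and Ccl3 (0.50, SE 0.10) rose, and the immediate early genes Egr1 (-0.61, SE 0.09) and Egr2 (-0.49, SE 0.10) fell. With 6 arrays these were at 0.21 (Ccl2), 0.24 (Ccl3), -0.36 (Egr1) and -0.11 (Egr2). Il10, the gene of an anti-inflammatory cytokine, had 0.22 (SE 0.13, adjusted p = 0.72) with 6 arrays and 0.06 (SE 0.06) without replicate 3.

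The cultures carried macrophage markers in both groups. The mean log2 value of the 8 macrophage markers was 11.97 to 12.36 on vimentin-deficient and 11.91 to 12.07 on wild-type arrays, with Cd68 and Lyz2 the brightest. Of the 8, 3 were higher and 5 lower in both fits, with medians of -0.09 with 6 arrays and -0.12 without replicate 3. None passed with 6 arrays (0 of 8 in limma), and 1 passed without replicate 3, where 2.34% of tested genes did. An unadjusted p below 0.05 in limma was reached by 2 of the 8 with 6 arrays and 5 without replicate 3. Over all 13445 tested genes these counts were 1072 and 1910. The marker that passed was Cd14, a co-receptor for lipopolysaccharide, which rose by 0.59 (SE 0.08, adjusted p = 0.00201). With 6 arrays Cd14 was at 0.75 (adjusted p = 0.25). Among the lower ones without replicate 3, Mertk was at -0.46 (SE 0.12, adjusted p = 0.095), Adgre1 at -0.25 (SE 0.08, adjusted p = 0.15) and Lyz2 at -0.15 (SE 0.05, adjusted p = 0.15). The higher ones beside Cd14 were Itgam (0.20, SE 0.08, adjusted p = 0.30) and Fcgr1 (0.15, SE 0.11, adjusted p = 0.59). On vimentin-deficient replicate 3 Fcgr1 read 11.70, against 9.82 to 10.09 on wild-type arrays. Itgam read 9.60 on that array, against 10.30 to 10.41 on wild-type arrays. Lists of dendritic cells, monocytes, granulocytes, lymphocytes, stromal cells and osteoclasts had 0 genes past limma's threshold in either fit, with 1 of their 27 tested genes at an unadjusted p below 0.05 with 6 arrays and 4 without replicate 3. Their array means lay between 7.35 and 8.56 on vimentin-deficient and between 7.36 and 8.52 on wild-type arrays. The largest gap was of the osteoclast list on vimentin-deficient replicate 3, at 7.87 against 7.36 to 7.44 on wild-type arrays. It lay mostly in Ctsk, at 9.01 against 7.37 to 7.72 on wild-type arrays. On that array Acp5 was at 7.94 (wild-type 7.54 to 7.77) and Dcstamp at 7.07 (6.96 to 6.98). Mmp9, at 7.46, lay within its wild-type range of 7.42 to 7.47 on that array. Kit, listed with the dendritic cells but also a gene of progenitors and mast cells, was low on that array, at 7.20 against 8.52 to 8.64 on wild-type arrays.

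For Clec4e, Clec7a and Mrc1, picked with earlier results known, the tested genes with the most similar course over the 6 arrays are given. Likeness is the root mean square difference of the deviations from the 6-array mean, with no test. Nearest to Clec4e were the stress-inducible Nupr1 (0.19 log2 units), the surface protein gene Cd24a (0.26), the transcription factor gene Ets2 (0.32) and the amino acid transporter gene Slc38a2 (0.34), where the spread of Clec4e itself was 0.67. Nearest to Clec7a were the adhesion receptor gene Adgre5 (0.16), the proteoglycan gene Sdc1 (0.18), the apolipoprotein gene Apoe (0.21) and the sterol hydroxylase gene Cyp27a1 (0.21), against a spread of 0.67. Nearest to Mrc1 were Dhcr7 (0.067), Acsl3 (0.085), Srebf2 (0.087) and Nsdhl (0.088), against a spread of 0.57. For Clec7a and Mrc1 the shared course includes the extreme value of vimentin-deficient replicate 3. Within the set, the closest pairs were Clec5a with Mgl2 (0.13) and Clec4d with Clec4n (0.17), and the farthest was Clec4e with Clec7a (1.21).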

How the data were processed

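RNA of 6 macrophage samples was measured, 1 array each, 3 per genotype, with groups and replicate numbers from the sample titles. The authors deposited log2 probe set values. Per the labels, total RNA came from a Trizol extraction and was turned into biotin-labelled cRNA for Affymetrix arrays. Summary, normalization and build are not given in the sources used here. The array medians lay between 7.23 and 7.25, so the log2 values were used as deposited, and the number of arrays limits the precision.

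Of 45101 probe sets, 64 were controls. A gene was represented by its brightest probe set, and genes under the 40th percentile were left out. The gene-level test was limma 3.58.1 under R 4.3.3 (eBayes with a mean-variance trend, no covariates), and all 45037 other probe sets likewise without a filter. SE uses limma's moderated variance. Differences within arrays used two-sided exact permutation tests. The labels do not say which animals gave which sample, so p-values measure only the spread between these samples.

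The lectin set, the other gene lists and the tests were chosen with earlier results of these data known. Named genes are the lectin genes, Vim, genome neighbours, for each list up to 4 genes with the smallest p and the 2 brightest markers, and the 4 nearest patterns of Clec4e, Clec7a and Mrc1. Fcer1g, Tyrobp, Syk, Ptpn6, Ptprj, Mertk, Adgre1, Itgam and the genes past the threshold without replicate 3 were named after their values were seen. Promoters are from RefSeq (GRCm38.p6). The procedure was checked on data made with known changes. Those data had independent noise and no array that stood apart, so the check does not cover the part of vimentin-deficient replicate 3.

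Alternatives covered normalization, filter, probe set choice, variance model, array weights, replicate number as a block, each array left out, and the threshold. Those applied to the fit without vimentin-deficient replicate 3 were chosen after seeing the data.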

Additional observations from a re-analysis of the deposited data

How the results depend on the processing

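With 6 arrays, 3 genes passed in all. With array weights 93 genes did, 1 of the lectin genes among them (Clec4e, adjusted p = 0.0033) and 2 lectin probe sets. With the replicate number as a block 0 genes passed, so no lectin gene either. The numbers were not taken as pairs, since deviations from the group means of same-numbered arrays correlated at 0.50, -0.19 and 0.05, and not every array correlated best with its own number. Leaving out each array in turn gave 0 to 315 genes, 0 to 4 lectin genes and 0 to 5 lectin probe sets, the highest each without vimentin-deficient replicate 3 and 0 lectin genes without any other array. In 15 alternatives the log2 fold change of Clec4e lay between 0.89 and 1.48 and that of Mgl2 turned to -0.037 without vimentin-deficient replicate 2, with 0.43 without replicate 3. Over the fits without 1 array, Clec7a ran from -1.03 to -0.02, Clec5a from 0.14 to 0.65, Clec10a from 0.06 to 0.87, Mrc1 from -0.90 to -0.18, Clec4a2 from -0.52 to -0.23 and Clec4d from 0.14 to 0.43. The gap between the Clec4n probe sets ran from -0.020 to 0.073, and that of Clec10a minus Mgl2 from -0.37 to 0.91, over the fits without 1 array.

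In the fit without vimentin-deficient replicate 3, 4 lectin genes passed. Clec4e passed under all 13 alternatives tried on it, with log2 fold changes of 1.01 to 1.63. Clec7a passed in 11, Clec5a in 10 and Clec4n in 7. Leaving out wild-type replicate 1 as well gave 6 lectin genes (Clec4d and Mgl2 gained). Leaving out wild-type replicate 2 as well gave 4, and wild-type replicate 3 gave 1. The share of all tested genes that passed in those fits is not given here, so the counts cannot be set against it. With vimentin-deficient replicate 1 or 2 left out as well, Clec4e was at 1.32 and 1.63, and Clec7a at -0.84 and -1.22. A lone vimentin-deficient array is then assumed to vary like the wild-type arrays. Without wild-type replicate 1 as well Clec10a turned to -0.026. Clec7a minus Clec12a could not be run, since Clec12a has no value here. Wild-type Clec4e lies close to the filter, where background can compress a fold, and whether it did so here was not tested.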
